A study of Mus musculus with 16 samples.

Results

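The Nduf genes encode the nuclear subunits of respiratory complex I, its assembly factors and a few relatives that carry the same name. They were taken as every row of the deposited table whose gene name begins with Nduf and does not contain -ps, which gave 51 of 57010 rows. Another 3 rows with -ps were left out. RNA was sequenced from cardiomyocytes isolated from hearts of C57BL/6 mice, in 16 libraries that form 4 groups of 4. All mice had received an adeno-associated virus of serotype 9, either AAV9-Vector (genotype labelled WT) or AAV9-PRODH (labelled PRODH Overexpression), which carries proline dehydrogenase, a mitochondrial enzyme of proline breakdown. The second factor was surgery 3 weeks after injection, either sham or transverse aortic constriction (TAC), a banding of the aortic arch that puts pressure on the left ventricle, and cells were collected 4 weeks after surgery. Groups are named by virus and surgery, for example vector sham or PRODH TAC. Overexpression is described as cardiac-specific, but neither the promoter of the virus nor the age and sex of the mice is stated in the sources used here. The labels do not say whether each library is its own animal; if not, the p-values measure only technical spread.

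Complex I (NADH:ubiquinone oxidoreductase) is the entry point of electrons from NADH into the respiratory chain and one of the proton pumps that drive ATP synthesis in the mitochondrial inner membrane. It is L-shaped: a matrix arm holds the flavin and the iron-sulfur clusters that carry electrons to ubiquinone, and a membrane arm pumps protons. The catalytic core is made of 7 subunits encoded in the nucleus and 7 encoded by mitochondrial DNA, surrounded by accessory subunits, and assembly factors build the arms without staying in the finished enzyme. Heart muscle is among the tissues richest in this complex.

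Nuclear respiratory factor 1 (NRF1), ETS factors, oestrogen-related receptors (ERR) and YY1 are known regulators of respiratory chain genes, so their textbook motifs were searched on both strands in the 250 bases before each gene's RefSeq start (GRCm38.p6). The letters were GCGCA, any base and GCGC for NRF1, CCGGAAG for ETS factors, AAGGTCA for ERR and AAGATGGCG for YY1, and no motif is contained in another. A promoter was found for 41 of the 51 members; those with no entry included Ndufa11b, Ndufa2, Ndufa4l2, Ndufaf6, Ndufb11b, Ndufb4c, Ndufb9, Ndufs1 and Ndufs6b. The NRF1 letters stood in 7 of 41 member promoters (17.1%) and in 4.23% of the 27025 genes with a promoter. The ETS letters were in 12.2% of member promoters against 7.83% of all, the ERR letters in 7.32% against 4.7%, and the YY1 letters in 0 member promoters against 0.71% of all. The members with the NRF1 letters were Ndufa11, Ndufa5, Ndufa8, Ndufaf4, Ndufb4, Ndufs5 and Ndufs6. Promoters of 4 of them are shown, because Ndufaf4 and Ndufa5 had the largest falls after TAC under the vector, Ndufa11 had the smallest, and Ndufs6 lay between; capitals mark the motif letters, 5′ to 3′ in the direction of the gene.
Ndufaf4 (chr4:24897833-24898082, plus strand): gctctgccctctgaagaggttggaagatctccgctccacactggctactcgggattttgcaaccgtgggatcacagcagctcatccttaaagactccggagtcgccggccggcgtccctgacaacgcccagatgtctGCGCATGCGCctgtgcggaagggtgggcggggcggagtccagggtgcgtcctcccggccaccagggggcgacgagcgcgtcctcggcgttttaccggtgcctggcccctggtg
Ndufa5 (chr6:24527691-24527940, minus strand): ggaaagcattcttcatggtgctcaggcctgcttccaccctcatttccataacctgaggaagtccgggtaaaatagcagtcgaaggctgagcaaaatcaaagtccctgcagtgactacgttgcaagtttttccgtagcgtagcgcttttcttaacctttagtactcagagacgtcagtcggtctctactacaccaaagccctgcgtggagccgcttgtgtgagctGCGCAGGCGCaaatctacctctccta
Ndufa11 (chr17:56717512-56717761, plus strand): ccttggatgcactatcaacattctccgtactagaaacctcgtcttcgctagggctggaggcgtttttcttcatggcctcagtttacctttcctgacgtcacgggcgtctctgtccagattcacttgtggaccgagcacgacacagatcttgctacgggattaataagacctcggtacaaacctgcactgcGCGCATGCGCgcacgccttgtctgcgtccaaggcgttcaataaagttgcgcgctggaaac
Ndufs6 (chr13:73328483-73328732, minus strand): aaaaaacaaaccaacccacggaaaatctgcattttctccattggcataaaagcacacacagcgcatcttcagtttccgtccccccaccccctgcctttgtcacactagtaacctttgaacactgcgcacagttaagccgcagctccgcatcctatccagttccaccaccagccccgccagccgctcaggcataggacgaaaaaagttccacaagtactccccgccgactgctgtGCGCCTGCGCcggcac
Each of these 4 promoters held the NRF1 letters once. The 7 members with the letters had a median log2 change after TAC of -0.63 under the vector (range -0.93 to -0.29), and the 34 members without them had a median of -0.56 (range -0.77 to -0.31). Under PRODH the medians were -0.59 and -0.53. These matches describe the sequence, not binding of a factor.

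Library totals ran from 15987580 to 22680212 counts. Of the 51 members, 48 passed the filter on low counts and were tested; Ndufb11b and Ndufa11b were at 0 in all libraries and Ndufs6b had 5 counts in all. The tested members had between 2173 and 202613 counts summed over the 16 libraries. Levels were scaled by TMM to a common library size, as CPM. In sham hearts Prodh ran from 10.4 to 11.5 CPM with the vector and from 12.6 to 14.8 CPM with PRODH. After TAC it ran from 6.19 to 8.38 and from 12.3 to 14.7 CPM, so both PRODH groups lay above their vector groups without overlap. In sham hearts the difference of 0.33 in log2 (SE 0.10) did not pass the test (edgeR adjusted p = 0.0517). After TAC the difference was 0.90 (SE 0.10), where Prodh had changed by -0.58 (SE 0.11) under the vector and by -0.02 (SE 0.10) under PRODH. Whether these counts include RNA made from the virus was not tested. Mitochondrially encoded genes and their nuclear copies took 58.4% to 62.9% of counts in sham libraries and 53.1% to 55.8% in TAC libraries, and the TMM scaling factors were 0.81 to 0.93 and 1.09 to 1.20 in the same libraries. The 8 cardiomyocyte markers summed to a mean of 37600 CPM in sham and 27900 in TAC libraries with the vector, and to 37000 and 30300 CPM with PRODH, far above the markers of other cell types. The latter were present in all groups and none was at 0: fibroblast markers averaged 160 CPM in vector sham and 1120 in vector TAC, against 183 and 316 under PRODH. Endothelial markers went from 568 to 1020 under the vector and from 598 to 771 under PRODH, and myeloid markers from 154 to 366 and from 200 to 211. Their part in the changes of the Nduf genes was not tested, and in such bulk samples fewer cells of a type cannot be told apart from less RNA per cell.

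Levels were compared between genes as CPM per kilobase of the deposited gene length. In vector sham, Ndufa4 had the highest level, 1460 ± 71.7 CPM per kb (mean ± SD, n = 4). Ndufa4 was named as a complex I subunit and is now placed in cytochrome c oxidase, complex IV. The membrane arm subunits Ndufb8 (724 ± 64.3), Ndufb9 (676 ± 26.5) and Ndufb10 (648 ± 37.6) came next, also in CPM per kb. The 37 structural subunits of complex I ran from 68.8 (Ndufb4) to 724 CPM per kb, with a median of 262, a 10.5-fold span for proteins that each enter the complex. Ndufs1 was the lowest of the core subunits, at 158 ± 12 CPM per kb, and the NADH-binding subunit Ndufv1 was at 263 ± 19.6. The 8 assembly factors were all below every subunit, at 9.13 (Ndufaf6) to 29.8 CPM per kb (Ndufaf1), with a median of 15.7. Ndufa4l2, the paralogue of Ndufa4 known as a hypoxia-induced gene, was lowest of the tested members at 4.78 ± 0.718. Neighbours in this order were often not separable: in 35 of 47 neighbouring pairs the 4 vector sham libraries of one gene overlapped those of the next. After TAC the median of the 37 subunits was 175 CPM per kb under the vector and 173 under PRODH, against 252 in PRODH sham.

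**Figure D1:**
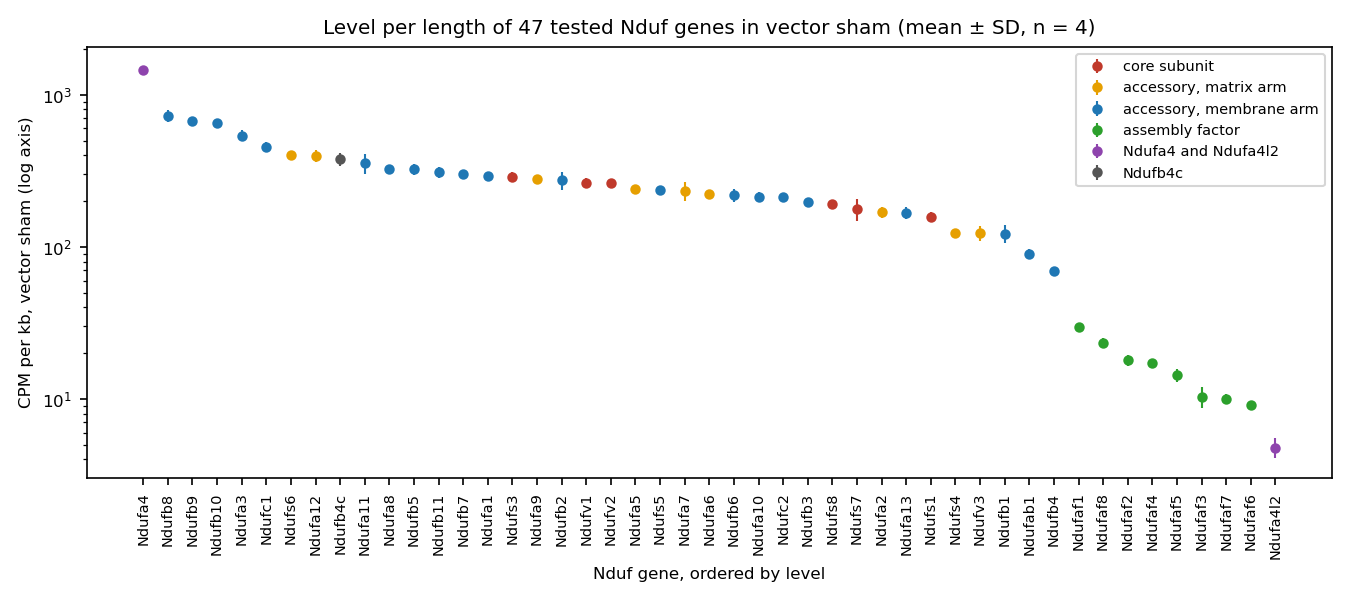
Level of 47 tested Nduf genes in vector sham, in CPM per kb on a log axis, as the mean and SD of 4 libraries and coloured by role. Ndufa4 stands alone at 1460, the subunits of complex I lie between 68.8 and 724, and the 8 assembly factors lie between 9.13 and 29.8.

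A pair of members could not be told apart by sequence. The 390 bases of Ndufb4c, which GENCODE lists as a processed pseudogene, were 100% identical to a stretch of the 971-base Ndufb4 transcript, and the deposited counts of both were fractional in all 16 libraries. Ndufb4c took between 65.8% and 71.9% of the pair's counts, and so the levels of both are uncertain. The same holds for the rank of Ndufb4 as the lowest subunit and for the 10.5-fold span that rests on it. The next lowest subunit in vector sham was Ndufab1, at 89.7 CPM per kb. That place rests on its deposited length of 3479 bases, because by CPM alone Ndufab1 ranked 12 among the members. GENCODE lists Ndufb1 as a lncRNA at a bidirectional promoter, and Ndufa11b and Ndufs6b as processed pseudogenes. In all, 16 members had a fractional count in at least 1 library. Ndufa12 and Ndufb6 had one in all 16 libraries, Ndufs1 in 15 and Ndufab1, the mitochondrial acyl carrier protein, in 14.

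After TAC under the vector, expression of complex I genes fell almost throughout. Of the 48 tested members, 47 fell and 1, Ndufa4l2, rose, at an adjusted p under 0.05 (quasi-likelihood test of edgeR, with the Benjamini-Hochberg procedure over all 14066 tested genes). Among all tested genes 26.2% fell and 30.3% rose in this comparison. The median log2 change of the members was -0.56, and that of all genes was 0.02. All 7 core subunits fell (median -0.66), as did all 9 accessory subunits of the matrix arm (median -0.60), all 21 of the membrane arm (median -0.52) and all 8 assembly factors (median -0.52). In 45 of the 48 members the 4 TAC libraries did not overlap the 4 sham libraries. The exceptions, Ndufb1, Ndufa7 and Ndufa11, fell by 0.38, 0.31 and 0.29 on the log2 scale. Separation of the groups was not counted over all tested genes, so 45 of 48 has no background share beside it.

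The size of this fall, the number of calls and the sign of 6 members depended on the scaling between libraries. With library size alone the median of all genes moved to 0.37, and the Nduf median was -0.20, still 0.58 below that of all genes. In that fit 26 members were lower and 1 was higher, and Ndufa11, Ndufa2, Ndufa7, Ndufaf8, Ndufb4 and Ndufc2 had the opposite sign. The share of all tested genes called was not counted in this fit. The members took 0.882% to 1.03% of all counts in vector sham and 0.747% to 0.813% in vector TAC. Outside mitochondrial genes and their copies, the shares were 2.25% to 2.49% and 1.69% to 1.80%, without overlap.

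Among the core subunits, Ndufs1 fell most under the vector. Ndufs1 is the largest iron-sulfur subunit of the matrix arm. Its level was 448, 410, 372 and 411 CPM in the 4 vector sham libraries and 248, 273, 189 and 183 CPM in the 4 vector TAC libraries. All TAC libraries lay below all sham libraries, with TAC libraries 3 and 4 the lowest. The log2 change was -0.88 (SE 0.10, edgeR adjusted p = 3.51e-08), which leaves 0.544 of the sham level. Ndufv1, which binds NADH and the flavin, was at 409, 484, 425 and 429 CPM in vector sham and at 284, 272, 282 and 272 CPM in vector TAC (log2 change -0.66, SE 0.07). The TAC libraries of Ndufv1 were close together and all below sham. Ndufs3, Ndufs7, Ndufs8 and Ndufv2 changed by -0.69, -0.62, -0.60 and -0.58 in log2. Of these 4, Ndufs7 had the widest spread in sham, from 132 to 201 CPM.

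The largest fall of all members was in an assembly factor. Ndufaf4, which works with Ndufaf3 early in building the matrix arm, was at 66.0, 58.1, 59.0 and 64.9 CPM in vector sham and at 33.3, 38.6, 28.7 and 29.2 CPM in vector TAC. The groups were far apart, and the log2 change was -0.93 (SE 0.08, edgeR adjusted p = 1.12e-10). Ndufaf1, a scaffold of the intermediate that builds the membrane arm, went from 42.7 to 44.5 CPM down to 22.0 to 30.0 CPM, a log2 change of -0.75. The other 6 assembly factors fell by 0.32 (Ndufaf8) to 0.56 (Ndufaf7) on the log2 scale. In the matrix arm, the accessory subunit Ndufa5 changed by -0.88 (SE 0.09) and Ndufs4, whose loss in mice causes a fatal brain disease, by -0.77 (SE 0.07). Ndufs4 was at 204 to 217 CPM in vector sham and at 115 to 139 CPM in vector TAC.

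Ndufa4 and Ndufa4l2 moved in opposite directions. Ndufa4 was at 626, 699, 639 and 669 CPM in vector sham and at 422, 480, 359 and 339 CPM in vector TAC, a log2 change of -0.72 (SE 0.09). Ndufa4l2 was at 4.20, 5.12, 4.89 and 3.65 CPM in vector sham and at 10.3, 10.4, 12.8 and 10.5 CPM in vector TAC. Its TAC libraries were all above its sham libraries, with a log2 change of 1.30 (SE 0.12, edgeR adjusted p = 2.40e-10). Even after this rise, Ndufa4 stood 75.0-fold above Ndufa4l2 per kb, against 305-fold in vector sham. Ndufa4l2 is also known from pericytes. The 8 genes taken as mural cell markers, for pericytes and smooth muscle, summed to 417 to 434 CPM in vector sham and 505 to 563 CPM in vector TAC. Of the mural markers, 5 of 8 rose and 2 (Abcc9 and Acta2) fell, so the sum mixes opposite changes. Their part in the rise of Ndufa4l2 was not tested.

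**Figure D2:**
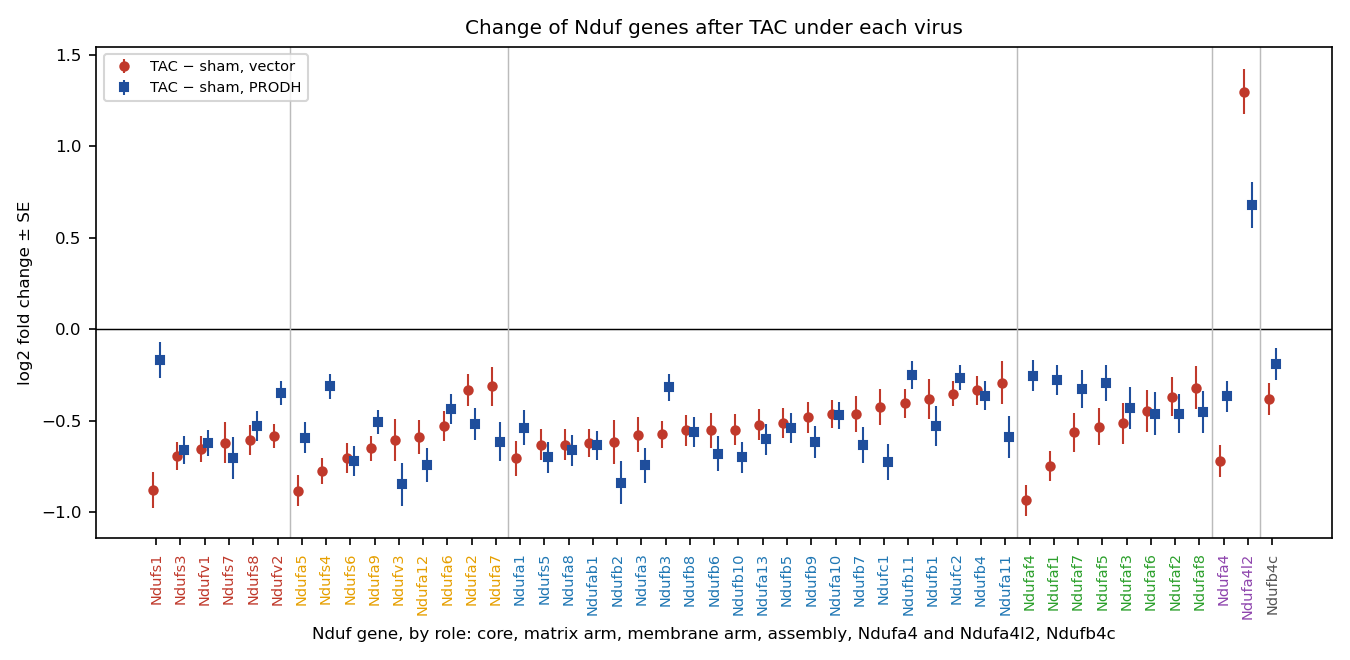
Log2 change from sham to TAC for 47 tested Nduf genes, with its SE, under the vector (circles) and under PRODH (squares), grouped by role. Under the vector all but Ndufa4l2 are below 0, the lowest at -0.93 (Ndufaf4), and Ndufa4l2 is above 0 under each virus, at 1.30 and 0.68.

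Under PRODH, TAC also lowered most complex I genes. Of the 48 members 45 fell and 1, Ndufa4l2, rose, where 17.8% of all tested genes fell and 17.2% rose. The median log2 change was -0.53, against 0.02 over all genes. All 9 matrix arm accessory subunits (median -0.59), all 21 membrane arm subunits (median -0.60) and all 8 assembly factors (median -0.38) fell, and 6 of 7 core subunits did (median -0.53). The core subunit that did not pass was Ndufs1, with a log2 change of -0.17 (SE 0.10, edgeR adjusted p = 0.199). Its levels in the 4 PRODH sham libraries were 423, 419, 397 and 346 CPM, and those in the 4 PRODH TAC libraries were 367, 345, 358 and 343 CPM, which overlap. The other member that did not pass was Ndufb4c, at -0.19.

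The largest falls under PRODH were in accessory subunits of both arms. Ndufv3, the small accessory subunit at the tip of the matrix arm, was at 150, 173, 203 and 242 CPM in PRODH sham and at 100, 95.3, 112 and 120 CPM in PRODH TAC. The groups did not overlap, and the log2 change was -0.85 (SE 0.12, edgeR adjusted p = 1.25e-05). Ndufb2 and Ndufa3, both of the membrane arm, changed by -0.84 and -0.74 in log2. Ndufv1 changed by -0.62 and Ndufs7 by -0.70, close to their changes under the vector. Ndufa4 went from 592 to 717 CPM down to 480 to 514 CPM, a log2 change of -0.36. Ndufa4l2 was at 4.90, 3.92, 4.47 and 4.14 CPM in PRODH sham and at 6.96, 8.10, 6.34 and 6.61 CPM in PRODH TAC, a log2 change of 0.68 (SE 0.13). The groups did not overlap here either, and its PRODH TAC libraries all lay below its vector TAC libraries. Of the 8 mural markers 6 rose under PRODH and 0 fell (median 0.64 in log2), with sums of 407 to 443 CPM in PRODH sham and 479 to 544 CPM in PRODH TAC, and their part was not tested.

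Scaling mattered in the same way under PRODH. With library size alone, 20 members were lower and 2 were higher, and the median was -0.14, where that of all genes was 0.40. Ndufa4, Ndufaf1, Ndufaf4, Ndufaf5, Ndufaf7, Ndufb11, Ndufb3, Ndufb4, Ndufc2, Ndufs4 and Ndufv2 then had the opposite sign. A trend on gene length was also removed from each library, a correction chosen after seeing the data. The Nduf median under PRODH was then -0.27, beside 0.0 over all genes, with 32 members lower and 2 higher. Ndufa4, Ndufb11 and Ndufc2 had the opposite sign in that fit. Under the vector the same correction gave a median of -0.46, beside -0.03 over all genes, with 44 members lower and 1 higher. The shares of all genes called were not counted in these fits.

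**Figure D3:**
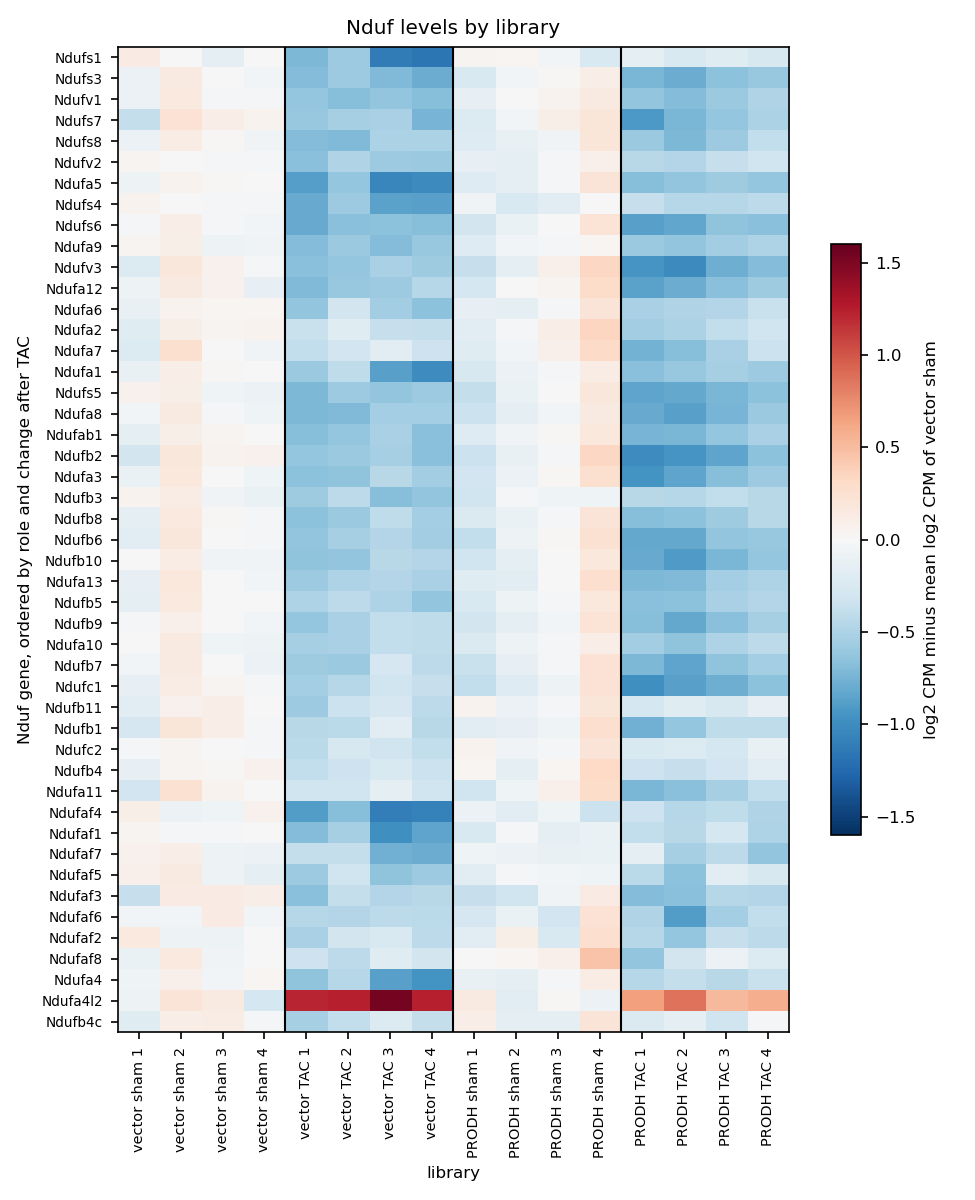
Level of 47 tested Nduf genes in each of the 16 libraries, as log2 CPM minus the gene's mean log2 CPM in vector sham, with blue below and red above. Most rows are blue in all 8 TAC libraries, Ndufa4l2 is red there, and PRODH sham libraries have medians between -0.209 and 0.196.

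Across libraries, the median of the members relative to vector sham was between -0.617 and -0.510 in the 4 vector TAC libraries and between -0.661 and -0.473 in the 4 PRODH TAC libraries. Those ranges overlapped. In PRODH sham the medians ran from -0.209 in library 1 to 0.196 in library 4, and in vector sham from -0.085 to 0.116. Every TAC library was therefore below every sham library on this measure.

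The comparison of PRODH with vector after TAC addressed how the loaded hearts of the 2 viruses differed. At an adjusted p under 0.05, 8 of 48 members were higher and 5 were lower, where 18.5% of all tested genes were higher and 24.6% lower. Neither share of the members exceeded that of all genes, and the median log2 difference was -0.04, the same as over all genes. The higher members included Ndufs1, Ndufaf4, Ndufs4, Ndufaf1, Ndufa4, Ndufa5 and Ndufv2, and the lower ones were Ndufa4l2, Ndufc1, Ndufa11, Ndufa7 and Ndufb10. By role, 3 of 7 core subunits were higher and 0 lower, 2 of 8 assembly factors were higher and 0 lower, and 2 of 9 matrix arm accessory subunits were higher and 1 lower. In the membrane arm 0 of 21 subunits were higher and 3 were lower (median -0.12). These calls by role depended on the setting. Membrane arm subunits called higher were Ndufb11 with DESeq2's size factors, and Ndufb11 and Ndufc2 with library size alone. With a trend on gene length removed, Ndufa1, Ndufb3, Ndufb4, Ndufb8, Ndufb11 and Ndufc2 of this arm were called higher and Ndufc1 lower. Over all 48 members, DESeq2's size factors in the edgeR fit gave 9 higher and 2 lower, and library size alone gave 11 higher and 3 lower. For these alternatives the share of all tested genes called was not counted.

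Ndufs1 had the largest difference. Its levels were 248, 273, 189 and 183 CPM in vector TAC and 367, 345, 358 and 343 CPM in PRODH TAC, all higher than any vector TAC library. The log2 difference was 0.66 (SE 0.10, edgeR adjusted p = 6.36e-06), or 1.58-fold. The PRODH TAC libraries of Ndufs1 were also closer to each other (SD 11.3 CPM) than those of vector TAC (SD 44.2 CPM).

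Ndufaf4 was at 33.3, 38.6, 28.7 and 29.2 CPM in vector TAC and at 49.1, 45.0, 46.6 and 44.4 CPM in PRODH TAC. The groups were separate, with a log2 difference of 0.51 (SE 0.08, edgeR adjusted p = 1.27e-05). Ndufs4 was at 119, 139, 116 and 115 CPM in vector TAC and at 161, 152, 152 and 156 CPM in PRODH TAC. Its groups did not overlap, and they differed by 0.34 in log2 (SE 0.07, edgeR adjusted p = 2.16e-04). Ndufaf1 was at 22.0 to 30.0 CPM in vector TAC and at 30.5 to 35.5 CPM in PRODH TAC, and differed by 0.34 as well (SE 0.08). Ndufa4, Ndufa5 and Ndufv2 were higher by 0.31, 0.25 and 0.18 in log2, and the first pair had overlapping groups.

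On the other side, Ndufa4l2 was lower by 0.65 in log2 (SE 0.11, edgeR adjusted p = 1.82e-05), with 10.3 to 12.8 CPM in vector TAC and 6.34 to 8.10 CPM in PRODH TAC. Of the 8 mural markers, 4 were lower with PRODH here (Pdgfrb -0.57, Notch3 -0.41, Kcnj8 -0.34 and Rgs5 -0.22) and 2 were higher (Abcc9 0.55 and Acta2 0.45), in log2. They summed to 505 to 563 CPM and 479 to 544 CPM in these groups, which overlap, and their part was not tested. Ndufc1, a small membrane arm subunit, was at 96.9, 104, 114 and 110 CPM in vector TAC and at 71.8, 77.6, 82.9 and 89.9 CPM in PRODH TAC. No library of one group reached the other, and the log2 difference was -0.40 (SE 0.10, edgeR adjusted p = 0.00177). Ndufa11, Ndufa7 and Ndufb10 differed by -0.30, -0.27 and -0.22, with edgeR adjusted p values of 0.042, 0.0444 and 0.0391. The core subunits Ndufv1, Ndufs7 and Ndufs8 did not pass, with log2 differences of 0.05, -0.09 and 0.04, and neither did Ndufs3, at -0.004 (SE 0.075).

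Vector TAC libraries 3 and 4 had the lowest levels of several higher members. Without both of them, an alternative chosen after seeing the data, 5 members were higher and 1 was lower, and 4 of the 13 kept their call. Those 4 were Ndufs1, Ndufaf4 and Ndufs4 on the higher side and Ndufa4l2 on the lower. In that fit Ndufa4 differed by 0.14 (edgeR adjusted p = 0.216) and Ndufc1 by -0.32 (edgeR adjusted p = 0.0613). Leaving out 1 library at a time gave 6 to 12 higher and 2 to 10 lower members. Ndufa11, Ndufa7 and Ndufb10 each lost the call under 12 of the 16 single omissions. Ndufv2 lost it without vector TAC library 1 or 4 or PRODH TAC library 3 or 4 (edgeR adjusted p = 0.0613 to 0.0947).

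**Figure D4:**
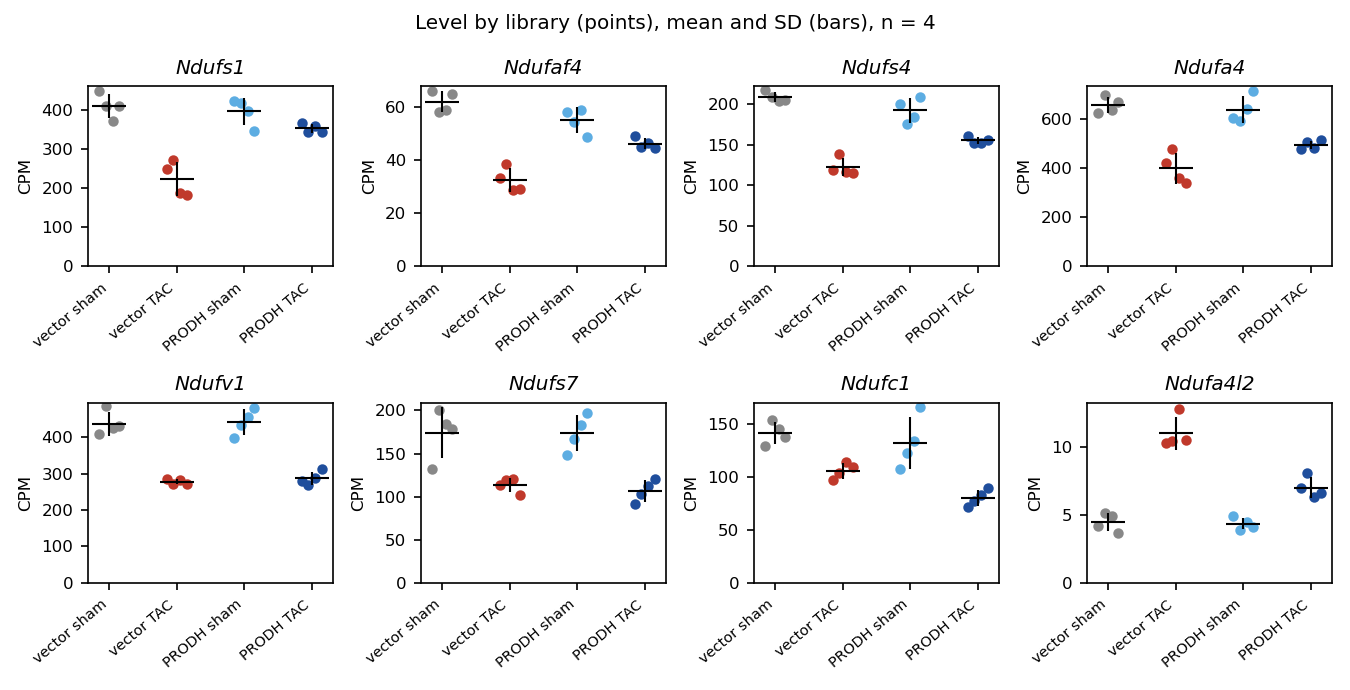
Level in CPM of 8 Nduf genes in the 16 libraries, with points for libraries and bars for the mean and SD of 4. Ndufs1, Ndufaf4 and Ndufs4 stand higher in PRODH TAC than in vector TAC without overlap, Ndufa4 overlaps, Ndufv1 and Ndufs7 differ by less than their spread, and Ndufc1 and Ndufa4l2 stand lower.

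The difference between PRODH and vector after TAC ran with gene length. Across the 48 members, Spearman's rho between deposited length and the log2 difference was 0.41, and over all 14066 genes it was 0.15; the genes share the same 16 libraries and are not independent. The 24 members below the median length of 868 bases had a median difference of -0.13, and the 24 longer ones had 0.04. Ndufs1 has 2590 bases and Ndufaf4 has 3632, whereas Ndufc1 has 315. Ndufa4, with 452 bases, was an exception on the higher side, and Ndufab1, with 3479 bases, differed by -0.03. With a smooth length trend over all genes removed, the median of the members became 0.12, with 22 higher and 2 lower. The median of all genes was -0.0 there, and the share of all genes called was not counted, so 22 of 48 has no background share. The 2 that remained lower were Ndufa4l2 and Ndufc1, and Ndufs1, Ndufaf4, Ndufs4 and Ndufa4 were among the 22. The part of length in the differences was not tested beyond this. In the TAC comparisons rho was -0.33 under the vector and 0.34 under PRODH, where all genes gave 0.14 and 0.38.

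**Figure D5:**
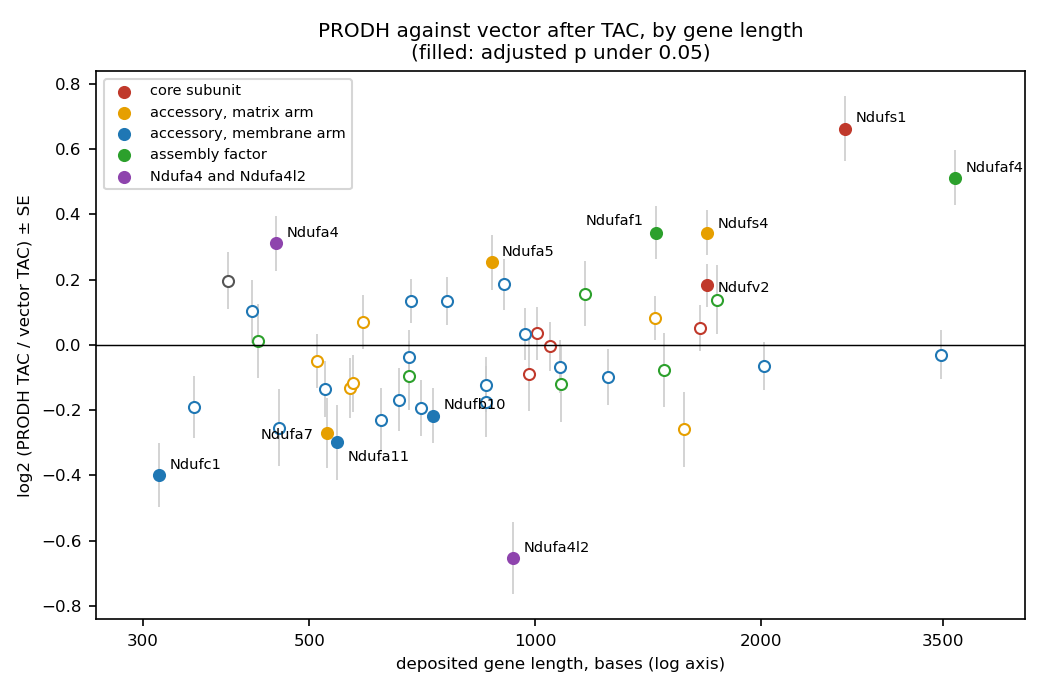
Log2 difference between PRODH TAC and vector TAC with its SE for 47 tested members, against deposited gene length on a log axis; filled points passed an adjusted p of 0.05. The 2 longest filled points, Ndufs1 and Ndufaf4, are highest at 0.66 and 0.51, and the shortest, Ndufc1, is at -0.40.

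In sham hearts, no member passed the test between PRODH and vector. At an adjusted p under 0.05, 0 of 48 members were higher and 0 lower, where 2.81% of all tested genes were higher and 2.2% lower. edgeR gave 0 members at an unadjusted p under 0.05, and DESeq2 called 0, with 1 at an unadjusted p under 0.05. The log2 differences ran from -0.17 (Ndufaf4) to 0.15 (Ndufaf8), with SE of 0.07 to 0.14, so that differences of this size could not be detected at this spread. Ndufs1 differed by -0.05 (SE 0.10) and Ndufa4l2 by -0.03 (SE 0.14). Ndufaf1 was at 42.7 to 44.5 CPM in vector sham and at 36.5 to 42.4 CPM in PRODH sham, without overlap, but its difference of -0.13 did not pass (edgeR adjusted p = 0.48).

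Whether the effect of TAC differed between the viruses was tested as an interaction, the change under PRODH minus that under the vector. At an adjusted p under 0.05 it was higher for 5 of 48 members and lower for 1, where 10.9% of all tested genes were higher and 15.8% lower. Neither share of the members exceeded that of all genes. Passing or not, 21 members had a value above 0 and 27 below 0. The 5 were Ndufs1 (0.71, SE 0.14), Ndufaf4 (0.68, SE 0.12), Ndufaf1 (0.47, SE 0.11), Ndufs4 (0.46, SE 0.10) and Ndufa4 (0.35, SE 0.12), in log2, with edgeR adjusted p values of 4.05e-04, 6.58e-05, 0.00269, 7.96e-04 and 0.0278. Their changes after TAC under PRODH were -0.17, -0.25, -0.28, -0.31 and -0.36, against -0.88, -0.93, -0.75, -0.77 and -0.72 under the vector. The member called lower was Ndufa4l2 (-0.62, SE 0.18, edgeR adjusted p = 0.00981), which rose less. No membrane arm subunit passed in this fit. Among the others, Ndufv2 (0.23, edgeR adjusted p = 0.0652) passed with library size alone, with TMM without mitochondrial genes and copies, with DESeq2 and under several single omissions. The membrane arm subunit Ndufb3 passed with that TMM and with DESeq2. With the length trend removed, 16 members were higher and 0 lower. Ndufa1, Ndufb3, Ndufb11 and Ndufc2 of the membrane arm were among the 16. The interaction shares its libraries with the other comparisons, so it is no separate evidence for the same genes.

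Calls of 2 of these interactions crossed the threshold when 1 library was left out, with their direction kept. Ndufa4 no longer passed without vector TAC library 3 (0.31, edgeR adjusted p = 0.0649) or 4 (0.28, edgeR adjusted p = 0.0792). Ndufa4l2 no longer passed without vector sham library 4 (-0.48, edgeR adjusted p = 0.0559). With all libraries but the length trend removed, Ndufa4l2 did not pass either (-0.47, edgeR adjusted p = 0.0518). Without vector TAC libraries 3 and 4 together, Ndufs1, Ndufaf4, Ndufaf1, Ndufs4 and Ndufa4l2 still passed.

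The other parts of complex I were counted from lists of their own. The 7 core subunits encoded by mitochondrial DNA all fell after TAC under both viruses, with medians of -0.66 and -0.51 in log2. Among all tested genes 26.2% fell under the vector and 17.8% under PRODH. Under the vector they ran from -1.04 (mt-Nd4l) to -0.45 (mt-Nd6). After TAC, 1 of the 7, mt-Nd4l, was higher with PRODH than with the vector (0.68, SE 0.13), and its interaction was 0.68 as well. Of all tested genes, 18.5% were higher with PRODH after TAC. The transcripts of these genes summed to 136000 to 164000 CPM in vector sham, a level that includes any sharing of counts with their nuclear copies.

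Of 11 assembly factors not named Nduf, 10 fell under the vector (median -0.52) and 5 under PRODH (median -0.22). The shares of all tested genes that fell were 26.2% and 17.8%. After TAC 5 of the 11 were higher with PRODH and 0 lower, where 18.5% of all tested genes were higher and 24.6% lower. The 5 were Tmem126b (0.46), Foxred1 (0.41), Tmem70 (0.34), Acad9 (0.30) and Tmem186 (0.26). Acad9 and Tmem126b are known partners of Ndufaf1 in the membrane arm intermediate, and Foxred1 acts late in assembly. Ecsit and Timmdc1, from the same list, were not among the 5. In the 8 Nduf assembly factors the same comparison gave 2 higher, Ndufaf4 and Ndufaf1, and 0 lower.

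Nuclear subunits of the other complexes of oxidative phosphorylation changed by like amounts after TAC. Of 39 tested subunits of complexes II to V, 38 fell under each virus, with medians of -0.57 and -0.56 in log2 beside -0.56 and -0.53 for the Nduf genes. Over all tested genes the shares that fell were 26.2% under the vector and 17.8% under PRODH. After TAC 6 of the 39 were higher with PRODH and 4 were lower, with a median of -0.025. Among all tested genes 18.5% were higher and 24.6% lower, and neither share of the 39 exceeded these. Sdha, the flavin subunit of complex II, was higher by 0.50 (SE 0.08). No test compared these lists with the Nduf genes.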

How the data were processed

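The authors deposited 1 table of estimated counts per gene for 16 libraries, with gene length in bases. Per the labels' protocols, TRIzol extraction preceded a SMARTER mRNA library kit; aligner, counter, annotation and build: not given in the sources used here. Estimated counts were rounded; the authors' 4 group-mean columns were not used. Genes passed edgeR's filterByExpr (minimum count 10, minimum total 15), TMM scaling was applied, and 1 robust quasi-likelihood model of the 4 groups (edgeR 4.0.16, R 4.3.3) was fitted to all 14066 tested genes, with Benjamini-Hochberg adjustment over all of them and a threshold of 0.05. SE is the log2 change divided by the square root of F. The script was tested on simulated data. Alternatives changed the scaling, filter, test (DESeq2 1.42.0), block, rounding and libraries. Shares of all tested genes called were counted for the main fit only. Counts of called members in the alternatives therefore have no background share beside them. All 51 deposited lengths equal that of a GENCODE M21 transcript of the gene. Per-library values were given for the core subunits, Ndufa4, Ndufa4l2, and per comparison the 3 largest called rises and falls among members with a mean of at least 5 CPM, with those called against the majority; values of other members were chosen after they were seen. 1 core subunit is in the counts and medians but is not reported here by itself. Members and lists were chosen with earlier results of these data known.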

Additional observations from a re-analysis of the deposited data

Results flagged for a closer look

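Among 80 groups of 4 libraries examined for the 20 genes with values by library, 3 had a library far from the other 3 by Dixon's criterion, which chance alone meets in about 1 in 20 groups. Vector TAC library 3 was the highest for Ndufa11, at 172 CPM against 153 to 154 in the other 3. The same library was the highest for Ndufa4l2, at 12.8 CPM against 10.3 to 10.5. Vector sham library 1 was the highest for Ndufaf1, at 44.5 CPM against 42.7 to 42.9.

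The effect of TAC differed between the viruses by the interaction test for 6 of 48 members, 5 higher and 1 lower. Of all tested genes, 10.9% were higher and 15.8% lower, and neither share of the members exceeded these. The change under PRODH minus that under the vector was 0.71 for Ndufs1, 0.68 for Ndufaf4, 0.47 for Ndufaf1, 0.46 for Ndufs4, 0.35 for Ndufa4 and -0.62 for Ndufa4l2, all in log2.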

How the results depend on the processing

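With library size alone, lower calls numbered 26 after TAC under the vector (median -0.20) and 20 under PRODH (median -0.14, higher 2), PRODH against vector after TAC had 3 lower, and the interaction had 8 higher. With the length trend removed, TAC under PRODH had 2 higher (median -0.27), PRODH against vector after TAC had 22 higher and 2 lower (median 0.12), and the interaction had 16 higher and 0 lower. In PRODH against vector after TAC the lower calls numbered 2 with DESeq2 size factors, 2 with TMM without mitochondrial genes and copies, 8 with no filter and 3 with DESeq2's Wald test; without vector TAC libraries 3 and 4 there were 5 higher and 1 lower. The interaction had 8 higher with TMM without mitochondrial genes and copies and 8 with DESeq2. Without length, Ndufa4 ranked 2 among the members.

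Leaving out 1 library at a time gave 44 to 47 lower members after TAC under the vector and 40 to 45 under PRODH. PRODH against vector after TAC ranged over 6 to 12 higher and 2 to 10 lower, with medians of -0.08 to -0.00. Its lower count was over 1.5 times from the reported count in 13 of 16 omissions. Those were all but PRODH sham library 4 and vector TAC libraries 1 and 2. The interaction ranged over 4 to 9 higher and 0 to 2 lower, with medians of -0.06 to 0.12. It had 8 or 9 higher without vector sham library 3 or 4, PRODH sham library 3 or 4 or vector TAC library 2. It had 0 lower without vector sham library 4 and 2 without PRODH sham library 1 or PRODH TAC library 4. In sham hearts no setting called a member.

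Among the genes with values by library, signs turned for Ndufa4 and Ndufv2 after TAC under PRODH with library size alone (0.02 and 0.03), for Ndufa4 with the length trend removed (0.02), and for Ndufs3 in PRODH against vector after TAC with the length trend removed (0.14). The cause was not tested. Deviations of same-numbered libraries correlated at -0.129 to 0.168 and those of others at -0.192 to 0.212. These ranges do not show a pairing by replicate number, but cannot exclude one. With the replicate number as a block, PRODH against vector after TAC had 10 lower and the interaction had 2 lower; no other count moved by over 1.5 times. Over the 58 gene results and their alternatives, 1399 kept the call and, where called, the sign, 69 lost the call, 25 gained it and 4 turned. The least abundant tested member had 2173 counts over all libraries.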
